A study of Mus musculus with 4 samples.

Results

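Mitochondrial ribosomal proteins were examined across 4 arrays of mouse DFAT cells, fibroblast-like cells obtained in culture from mature fat cells that shed their lipid droplet and revert. The group comprised every gene whose platform symbol begins with Mrpl or Mrps followed by a number, read through probe sets that carry that 1 symbol. This gave 76 genes of the 18193 with a single symbol, 47 named for the large subunit and 29 for the small subunit. The genes were picked by name, not by their measured values, though the group itself was chosen with earlier results of these data known. Each gene is represented by its brightest probe set, judged on the average of all arrays. All 76 had an array that reached the median of all values, a log2 signal of 5.69, and so stayed among the 11600 genes analysed.

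Each of 4 groups had 1 array: cells treated with Y-27632, an inhibitor of the ROCK kinases that drive actomyosin contraction, cells treated with the solvent DMSO, cells transfected with Mkl1 siRNA, and cells transfected with control siRNA. Mkl1 (Mrtfa in the current naming) codes for a protein that is held by free actin and otherwise enters the nucleus to assist SRF. All cells were kept in DMEM with fetal bovine serum. The labels give no mouse strain, dose, duration, siRNA sequence or differentiation medium, and do not say whether cells of different arrays came from separate cultures. With 1 array per group no difference has a replicate check and no p-value or SD between samples can be given, so the differences below describe these 4 arrays.

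Mitochondria keep a small genome of their own, which encodes core subunits of the respiratory chain. These are made inside the organelle by a ribosome of bacterial descent, whose RNA is encoded by mitochondrial DNA and whose proteins are all encoded in the nucleus, made in the cytoplasm and imported. In fat cells the respiratory chain rises in content as preadipocytes differentiate, and the mitochondrial ribosome supplies the mitochondrially encoded part of it.

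As a check of the labels, Mrtfa had a log2 signal of 7.70 with Mkl1 siRNA and 8.55 with control siRNA, and of 8.18 with Y-27632 and 8.32 with DMSO. All 10 fibroblast and stromal markers and all 8 mature adipocyte markers passed the filter, whereas 4 of 6 macrophage and leukocyte, 4 of 5 endothelial and 3 of 5 skeletal muscle markers did not. Probe sets against 18S ribosomal RNA, a sign of RNA composition, differed by a median of -0.48 for Y-27632 minus DMSO and -0.48 for Mkl1 siRNA minus control siRNA, against 0.15 for control siRNA minus DMSO. Of 17 mature adipocyte genes, all 17 lay higher in both treatments. Their summed log2 signal was 169.7 with Y-27632 and 134.0 with DMSO, and 170.6 with Mkl1 siRNA and 134.3 with control siRNA. All 17 passed the filter, which needs 1 array only. Cidec (5.605 with DMSO, 5.19 with control siRNA) and Lgals12 (4.76 and 4.57) passed it through the treated arrays alone. The fibroblast and stromal markers had 7 of 10 above DMSO with Y-27632 and 1 of 10 above control siRNA with Mkl1 siRNA. In such bulk samples fewer cells of a type and less RNA per cell cannot be told apart. The part of fat cell differentiation or RNA composition in the differences of the mitochondrial ribosomal protein genes was not tested.

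Most mitochondrial ribosomal protein genes lay slightly higher in both treatments than in their controls. With Y-27632, 62 of 76 were above DMSO, beside 50.4% of all genes analysed, with a median log2 difference of 0.086, a ratio of 1.06. With Mkl1 siRNA, 56 of 76 were above control siRNA, beside 50.1% of all genes, with a median of 0.14, a ratio of 1.10. Among the 7433 genes with an array past the 75th percentile of all values, 54.3% were above DMSO with Y-27632 and 52.3% above control siRNA with Mkl1 siRNA. For control siRNA minus DMSO, measured the same way as background, 44 of 76 were above 0, beside 48.5% of all genes, with a median of 0.026. The medians over all genes analysed were 0.0023, 0.00050 and -0.0089 in these 3 comparisons.

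**Figure D1:**
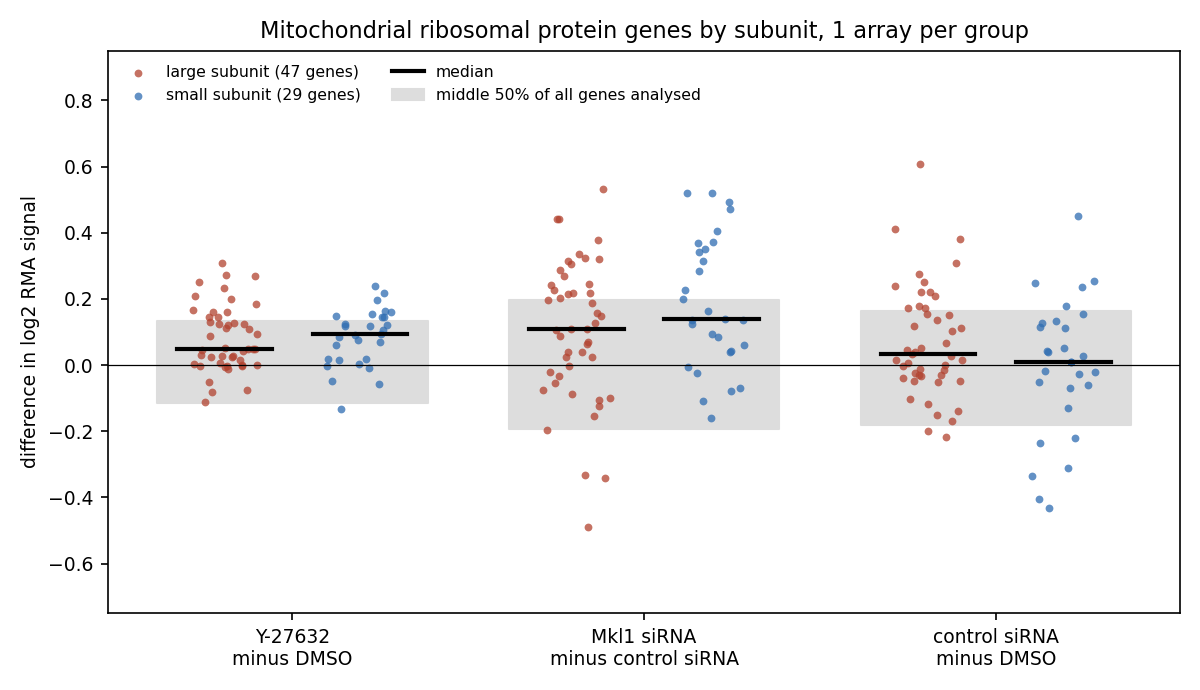
Difference in log2 RMA signal (vertical axis) of each mitochondrial ribosomal protein gene, 1 point a gene, for the large subunit (red) and small subunit (blue) in each of 3 comparisons; black bars are medians and grey bands the middle 50% of all genes analysed. With Y-27632 the points lie between -0.13 and 0.31, and with Mkl1 siRNA between -0.49 and 0.53; the medians lie above 0 in both treatments.

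The differences were small for every gene. No gene reached 1.5-fold in either direction with Y-27632 or with Mkl1 siRNA, although of all genes 3.0% were that far above and 1.33% that far below DMSO with Y-27632, and 5.42% above and 5.91% below control siRNA with Mkl1 siRNA. At a smaller limit, a ratio of 5 to 4 or a log2 difference of 0.322, 0 genes were past the limit with Y-27632 (8.43% of all genes higher and 5.76% lower), while with Mkl1 siRNA 15 of 76 were higher and 3 lower (15.1% of all genes higher and 15.2% lower). Between the control arrays 1 gene was at least 1.5-fold higher and none lower (3.42% and 4.09% of all genes), and 4 were higher and 3 lower by at least 0.322 (11.0% and 13.0% of all genes). The SD over the 76 genes was 0.094 for Y-27632 minus DMSO, 0.21 for Mkl1 siRNA minus control siRNA and 0.19 between the controls. Over all genes analysed the SD was 0.309, 0.437 and 0.365 in the same comparisons, so the order of the spreads was that of all genes.

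The arrays differed in where they stood within each gene. The array with Mkl1 siRNA was the highest of the 4 for 46 of 76 genes, the one with Y-27632 for 16, the one with control siRNA for 11 and the one with DMSO for 3; over all genes analysed the shares were 31.3%, 21.1%, 23.8% and 23.8%. DMSO was the lowest for 36 of the 76, control siRNA for 24, Mkl1 siRNA for 10 and Y-27632 for 6; over all genes these shares were 22.6%, 25.7%, 31.5% and 20.2%. Because DMSO stood low for many of these genes, the difference of Y-27632 depended on the control: against control siRNA its median was 0.038, with 47 of 76 above 0 beside 52.4% of all genes. Mkl1 siRNA against DMSO gave 61 of 76 above 0 (median 0.18) beside 49.1% of all genes, and 19 at least 0.322 above it beside 16.8%.

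**Figure D2:**
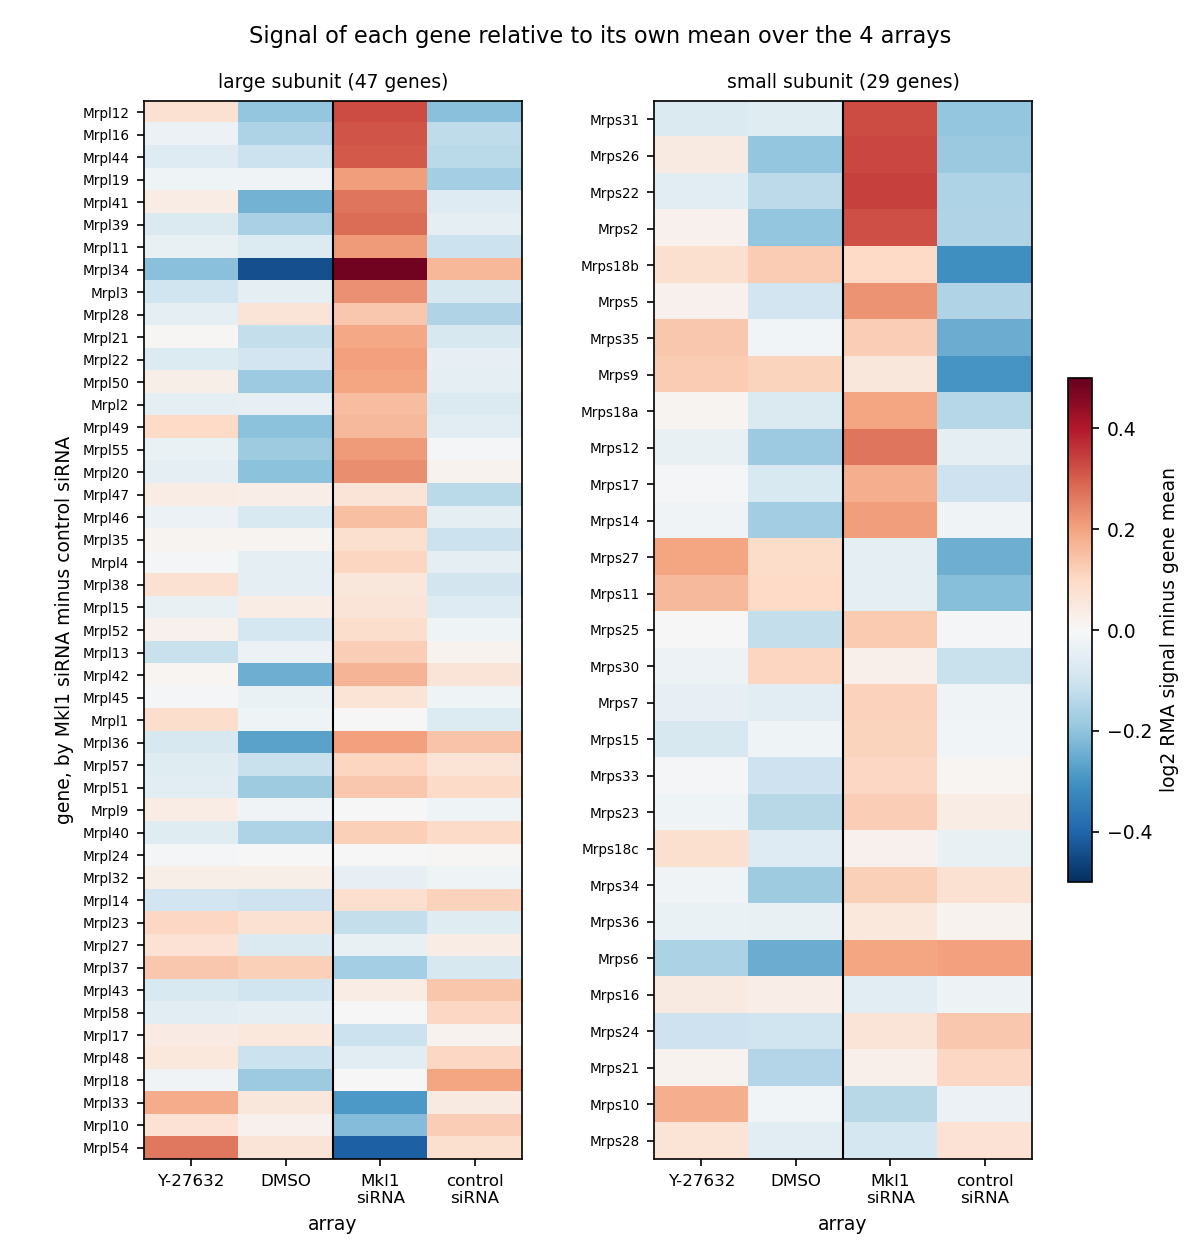
Log2 RMA signal of each gene minus its own mean over the 4 arrays (colour, red above and blue below the mean), with genes of the large subunit (left panel) and small subunit (right panel) in rows, ordered by Mkl1 siRNA minus control siRNA, and the 4 arrays in columns. Mkl1 siRNA is the highest array for 46 of 76 genes (31.3% of all genes analysed) and DMSO the lowest for 36 (22.6% of all genes analysed); Mrpl54, Mrpl10 and Mrpl33 at the foot of the left panel run the other way, with Mkl1 siRNA lowest.

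Large and small subunit genes had close medians, with a gap whose size and, for Mkl1 siRNA, sign depended on the processing. With Y-27632 the large subunit gave 38 of 47 genes above 0 (median 0.050), and the small subunit 24 of 29 (median 0.094). With Mkl1 siRNA the large subunit gave 33 of 47 above 0 (median 0.11), and the small subunit 23 of 29 (median 0.14). Large minus small was -0.044 for Y-27632 minus DMSO and -0.028 for Mkl1 siRNA minus control siRNA, beside 0.024 for control siRNA minus DMSO. The gap with Mkl1 siRNA was 0.0093 with the mean of all probe sets and 0.012 against DMSO, on the other side of 0. Without probe sets of type _s_at, _x_at and _a_at, which left 60 of the 76 genes, large minus small was -0.068 for Y-27632 minus DMSO and -0.075 for Mkl1 siRNA minus control siRNA. Past 0.322 with Mkl1 siRNA, the large subunit gave 6 higher and 3 lower genes of 47 against control siRNA. The small subunit gave 9 higher and 0 lower of 29. Against DMSO these counts were 12 higher and 2 lower of 47, and 7 higher and 0 lower of 29. The shares higher were then 25.5% and 24.1%, beside 16.8% of all genes, so the gap in this count depended on the control.

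Structures of the mammalian ribosome place Mrps30 and Mrps18a in the large subunit in spite of their names. Mrps30 differed by -0.13 with Y-27632 and by 0.14 with Mkl1 siRNA, and Mrps18a by 0.085 and 0.34. With both counted in the large subunit, large minus small became -0.057 for Y-27632 and -0.011 for Mkl1 siRNA. A further grouping, made after the values were seen, used the number in the gene's name: numbers up to 36 in the large and up to 21 in the small subunit are shared with bacterial ribosomal proteins, and most higher numbers stand for proteins added in mitochondria. The 43 genes with a bacterial number had medians of 0.053 for Y-27632 and 0.16 for Mkl1 siRNA, and the 33 with a higher number 0.11 and 0.11. Between the controls these medians were -0.0041 and 0.11, so the higher-numbered genes lay above DMSO on the control siRNA array by a similar amount.

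Among large subunit genes with Mkl1 siRNA, Mrpl12 stood out at the top. It encodes the flexible stalk protein that recruits translation factors to the ribosome and has also been reported to bind the mitochondrial RNA polymerase. Mrpl12 had a log2 signal of 10.54 with Mkl1 siRNA and 10.00 with control siRNA, and of 10.29 with Y-27632 and 10.02 with DMSO, on its only probe set. Both treated arrays were thus above both control arrays, by 0.53 (a ratio of 1.45) with Mkl1 siRNA and by 0.27 with Y-27632. Mrpl10, which anchors that stalk, lay below control siRNA: it had 9.30 with Mkl1 siRNA and 9.64 with control siRNA, and 9.59 with Y-27632 and 9.54 with DMSO, a difference of -0.34 and 0.050. Mrpl11, at the base of the same stalk, differed by 0.3201 with Mkl1 siRNA, just short of the limit, and by 0.031 with Y-27632.

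Mrpl16 had 10.72 with Mkl1 siRNA and 10.28 with control siRNA, and Mrpl44 had 9.94 and 9.50. Mrpl16 corresponds to a bacterial core protein near the tRNA-binding sites, and Mrpl44 has a fold of the RNase III family and is a human disease gene of the heart. Both differed by 0.44, and the 4 probe sets of Mrpl44 ran from 0.39 to 0.64. With Y-27632 they differed by 0.12 and 0.044. Mrpl19, at 0.38, and Mrpl41, at 0.33, followed. The 3 probe sets of Mrpl41 ran from 0.12 to 0.33, while the mean of the 4 probe sets of Mrpl19 was 0.24.

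The 3 genes at least 0.322 below control siRNA were all of the large subunit. Mrpl54, a mitochondria-specific protein, had 9.70 with Mkl1 siRNA and 10.19 with control siRNA, which is -0.49 apart (a ratio of 0.713), whereas it had 10.38 with Y-27632 and 10.18 with DMSO, a difference of 0.20. Mrpl33, counterpart of a small bacterial protein of the same number, had 10.98 with Mkl1 siRNA and 11.31 with control siRNA, a difference of -0.33, and differed by 0.13 with Y-27632. For both genes the Mkl1 siRNA array was the lowest and the other arrays lay within 0.20 of each other. Their second probe sets had log2 signals of 5.39 or less on every array, below the filter, and differed by -0.17 for Mrpl54 and by -0.0014 for Mrpl33 with Mkl1 siRNA, and by -0.61 and -0.19 with Y-27632. Mrpl18, a protein of the central protuberance, differed by -0.20 and Mrpl48, of the same structure, by -0.16, although both lay above DMSO with Y-27632, by 0.17 and 0.16. For them the control siRNA array was high, 0.38 and 0.21 above DMSO, and Mkl1 siRNA lay above DMSO by 0.19 and 0.054.

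In the small subunit, 4 genes led with Mkl1 siRNA. Mrps31, a mitochondria-specific protein, had 9.25 with Mkl1 siRNA and 8.73 with control siRNA, Mrps26 had 10.59 and 10.07, Mrps22 had 9.67 and 9.18, and Mrps2 had 10.20 and 9.73. Mrps2 corresponds to a conserved bacterial protein, and Mrps22 is a gene in which human variants cause mitochondrial disease. The differences were 0.52 for Mrps31, 0.52 for Mrps26, 0.49 for Mrps22 and 0.47 for Mrps2. With Y-27632 they were -0.0087, 0.24, 0.077 and 0.22. With the mean of both probe sets Mrps31 stood at 0.22, Mrps26 at 0.17 and Mrps2 at 0.27 with Mkl1 siRNA. The second probe sets of Mrps31 and Mrps26 were below the filter on every array, and that of Mrps2 was above it. Mrps22 has 1 probe set.

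Mrps18b, 1 of 3 mammalian relatives of a single bacterial protein, came next at 0.40, but here the control siRNA array was low. It had 9.50 with Mkl1 siRNA and 9.10 with control siRNA, and 9.48 with Y-27632 and 9.53 with DMSO. The same held for Mrps9, at 0.35 against control siRNA. For this gene control siRNA minus DMSO was -0.40 and Mkl1 siRNA minus DMSO was -0.055. Of the 15 genes at least 0.322 above control siRNA, 9 were also at least 0.322 above DMSO and 13 were above it at all. The 6 short of that limit were Mrpl19, Mrps18a, Mrps18b, Mrps35, Mrps5 and Mrps9. Both comparisons use the same Mkl1 siRNA array, and the matching share over all genes was not counted. These counts are therefore no result about the 15 genes. With the mean of all probe sets, including those below the filter, 7 of the 15 stayed past 0.322. The lowest small subunit genes were Mrps28 at -0.16, Mrps10 at -0.11, Mrps21 at -0.079, Mrps24 at -0.070 and Mrps16 at -0.024, none of which lay 0.322 below.

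With Y-27632 the highest large subunit gene was Mrpl49, a mitochondria-specific protein, with 10.15 with Y-27632 and 9.84 with DMSO, which is 0.31 apart (a ratio of 1.24). The gene's other probe set differed by 0.079. Mrpl41 (0.27), Mrpl12 (0.27), Mrpl42 (0.25) and Mrpl34 (0.23) followed. Mrpl34 was also the only gene at least 1.5-fold apart between the controls: it had 9.84 with Y-27632, 9.60 with DMSO, 10.53 with Mkl1 siRNA and 10.21 with control siRNA. Its control siRNA array was thus above Y-27632, and its second probe set, at 5.69 to 5.95, differed by -0.089 between the controls and by -0.26 with Y-27632, which puts the mean of both probe sets at -0.012 with Y-27632. Mrpl28 (-0.11), Mrpl13 (-0.082), Mrpl15 (-0.075), Mrpl3, a core protein near the peptidyl transferase centre, (-0.052) and Mrpl17 (-0.011) were the lowest.

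In the small subunit Mrps26 was the highest with Y-27632, with 10.30 against 10.06 with DMSO, a difference of 0.24. Mrps2 (0.22), Mrps10 (0.20), Mrps21 (0.16) and Mrps34 (0.16) followed. The mean of both probe sets of Mrps2 was -0.0034 and that of Mrps10 -0.020, so that these differences rested on the brighter probe set. Mrps30 was the lowest, with 9.81 with Y-27632 and 9.94 with DMSO, and Mrps15 (-0.058), Mrps18b (-0.049), Mrps31 (-0.0087) and Mrps24 (-0.0017) lay closer to 0.

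The treatment comparisons share no array. Of 76 genes, 46 were above 0 in both (60.5%, beside 29.1% of all genes analysed) and 4 below 0 in both (5.26%, beside 28.4%). The single counts of 62 and 56 above 0, multiplied as shares, give 45.7 genes above and 3.68 below in both, close to the counts found. The sizes were nearly uncorrelated: across the 76 genes the difference with Y-27632 and that with Mkl1 siRNA had a Pearson r of 0.054 and a Spearman rho of 0.050, beside 0.386 and 0.255 across all genes; genes are not independent replicates, and all points share the same 4 arrays. The genes furthest above 0 in both were Mrpl41, Mrpl12, Mrps26, Mrpl34 and Mrpl49, with the smaller of their differences between 0.22 and 0.27. The 4 below 0 in both were Mrpl17, Mrpl58 (a peptidyl-tRNA hydrolase that frees stalled ribosomes), Mrpl24 and Mrps24, whose Y-27632 differences were all within 0.011 of 0.

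**Figure D3:**
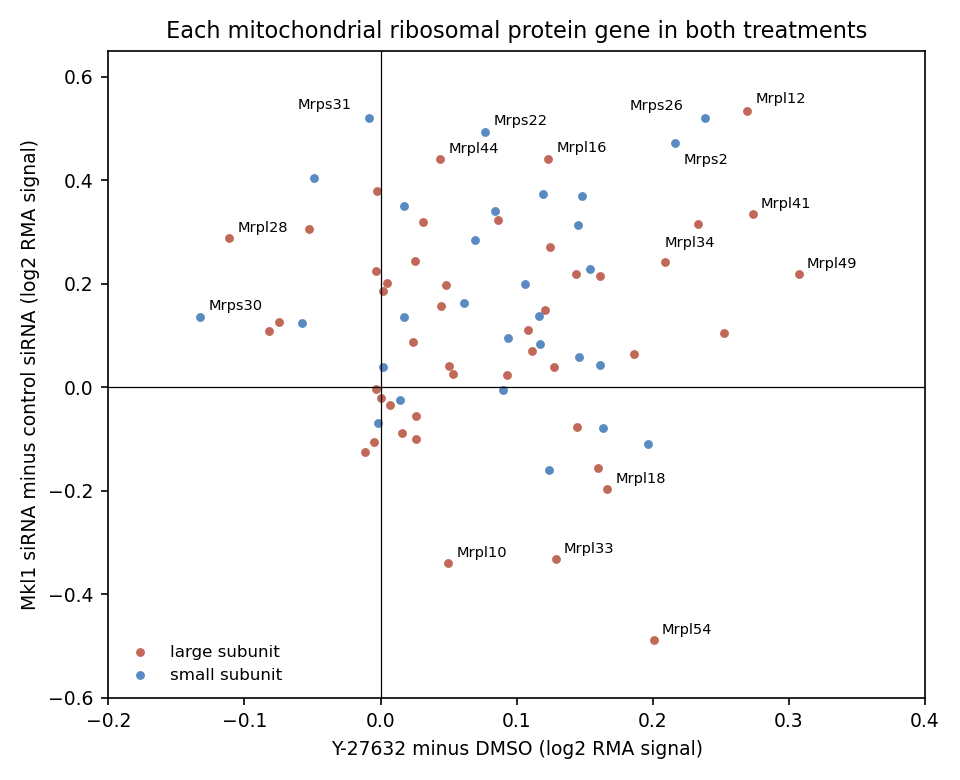
Difference of each gene for Y-27632 minus DMSO (horizontal axis) and Mkl1 siRNA minus control siRNA (vertical axis), in log2 RMA signal, with large subunit genes in red and small subunit genes in blue. In the upper right 46 of 76 genes lie above 0 in both, with Mrpl12 and Mrps26 furthest out, while Mrpl54, Mrpl33 and Mrpl10 lie low on the vertical axis only.

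Probe sets of 1 gene gave a measure of the error between probe sets, but not of that between cultures or arrays. The 76 genes had 156 probe sets, of which 135 reached the filter themselves, and 108 of these 135 were above DMSO with Y-27632 and 105 above control siRNA with Mkl1 siRNA, against 73 between the controls. Over all genes analysed 50.4%, 50.1% and 48.5% were above 0, while the share over all probe sets was not counted. The medians over these 135 probe sets were 0.077, 0.16 and 0.015. Among 33 genes with several such probe sets, all of them lay on the same side of 0 as the chosen one in 20 genes with Y-27632 and in 20 with Mkl1 siRNA. Between probe sets of a gene the median range was 0.15 for Y-27632 and 0.23 for Mkl1 siRNA. That range was larger than the group's median shift in both treatments, so the side of a single gene near 0 could not be read from these arrays. The largest range with Mkl1 siRNA, 0.96, was that of Mrpl15, whose brightest probe set differed by 0.13.

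Promoter sequences were set beside these differences, since NRF1 and the ETS factor GABP are known regulators of nuclear genes for mitochondrial proteins. RefSeq windows of 250 bases before to 50 after the gene's start (GRCm38.p6) were at hand for 67 of the 76 genes, and the first window listed for a gene was searched on both strands. TGCGCA, the shared core of many NRF1 sites and its own reverse complement, was in 21 of 67 windows (31.3%), beside 8.06% of 27025 windows of all genes and 14.5% of the 9336 windows of genes analysed here. CCGGAAG, a core of ETS sites, was in 24 of 67 on either strand (35.8%), beside 9.12% and 18.5%, and 8 windows held both motifs. The motifs do not overlap each other in letters, except that TGCGCA can share bases with a longer NRF1 core, CGCATGCG. This core was in 7 of 67 (10.4%, beside 1.91% and 3.93%) and was added after the windows were read. CGCATGCG preceded by G and followed by C, the full palindrome of NRF1, was in 3 of 67 (4.48%, beside 0.977% and 2.08%).

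TGCGCA and the ETS core were each paired with both treatments. Genes with the motif had the higher median in 1 of these 4 pairings, that of the ETS core with Y-27632. Between the controls the medians were 0.060 with and 0.015 without the ETS core, and -0.0041 with and 0.042 without TGCGCA. Genes with CGCATGCG or the full palindrome, 7 and 3 genes, had the lower median in both treatments. With Mkl1 siRNA the median difference was 0.063 in genes with TGCGCA and 0.19 in those without, and 0.089 in genes with the ETS core and 0.16 in those without. With Y-27632 the medians were 0.026 with and 0.12 without TGCGCA, and 0.11 with and 0.053 without the ETS core. A match describes the letters of the window and is not a site.

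The 4 windows are shown because they hold the highest and lowest gene with Mkl1 siRNA among those with each motif close to the start. Each runs 5′ to 3′ from 120 bases before to 20 after the gene's start on the gene's strand, from RefSeq GRCm38.p6, with both motifs, on either strand, in capitals. Mrpl44, the highest with TGCGCA, lies at chr1:79775898-79776037 on the plus strand, and Mrpl17, the lowest with it at -0.13, at chr7:105811068-105811207 on the minus strand. Mrps26, the highest with the ETS core, lies at chr2:130563637-130563776 on the plus strand, and Mrpl33, the lowest, at chr5:31613831-31613970 on the plus strand.
Mrpl44: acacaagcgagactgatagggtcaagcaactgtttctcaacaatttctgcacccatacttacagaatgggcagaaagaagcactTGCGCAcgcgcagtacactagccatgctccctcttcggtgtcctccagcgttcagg
Mrpl17: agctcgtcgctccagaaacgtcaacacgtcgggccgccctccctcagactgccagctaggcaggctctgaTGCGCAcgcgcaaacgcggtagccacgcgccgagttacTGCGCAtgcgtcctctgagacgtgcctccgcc
Mrps26: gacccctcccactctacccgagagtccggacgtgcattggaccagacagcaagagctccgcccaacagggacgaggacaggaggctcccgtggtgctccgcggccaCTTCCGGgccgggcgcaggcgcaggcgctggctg
Mrpl33: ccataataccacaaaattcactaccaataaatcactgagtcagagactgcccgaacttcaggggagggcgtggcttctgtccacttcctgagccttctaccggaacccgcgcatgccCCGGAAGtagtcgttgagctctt
Each pair was chosen as the highest and the lowest gene with Mkl1 siRNA, so its opposite sides of 0 say nothing about the motif. Mrps26 holds the ETS core as CTTCCGG, its reverse complement, and Mrpl33 as CCGGAAG.

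Genes that work with the mitochondrial ribosome were read from lists, for which the same background shares hold. Of 4 further ribosome subunits that carry other names, Ptcd3, a pentatricopeptide protein of the small subunit, had 10.10 with Mkl1 siRNA and 9.45 with control siRNA, a difference of 0.65, past 1.5-fold. Dap3 differed by 0.17, Chchd1 by -0.0525 and Gadd45gip1 by -0.0465. With Y-27632 the 4 ran from -0.10 to 0.16. The control siRNA array of Ptcd3 stood at -0.22 from DMSO, and Mkl1 siRNA minus DMSO was 0.43, short of 1.5-fold and below the 0.92 of Mrpl34 and the 0.53 of Mrps26.

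Of 25 genes for assembly of the ribosome and modification of its RNA, 18 were above 0 with Y-27632 (median 0.048) and 15 with Mkl1 siRNA (median 0.12). Past 0.322, 7 were higher and 1 lower with Mkl1 siRNA than with control siRNA, but 5 were higher and 4 lower than with DMSO (median 0.048). Between the controls 7 of the 25 were above 0 (median -0.092). Tfb1m, which methylates the small subunit RNA, was the highest at 0.62, followed by Rpusd3 at 0.50 and Mrm3, a methyltransferase of the large subunit RNA, at 0.47, while Mrm1 stood at -0.34. Of 11 translation factors, 8 were above 0 with Mkl1 siRNA (median 0.32) and 7 with Y-27632 (median 0.019). Guf1, a relative of a bacterial elongation factor, was the highest at 0.41, followed by the elongation factor Tufm at 0.40, the recycling factor Mrrf at 0.38 and the elongation factor Gfm1 at 0.37, and the release factor Mtrf1l was the lowest at -0.28. Between the controls 3 of the 11 were above 0 (median -0.095), and against DMSO the median with Mkl1 siRNA was 0.19. Guf1 had a low control siRNA array, at -0.35 from DMSO, and differed by 0.056 for Mkl1 siRNA minus DMSO.

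Of 16 mitochondrial aminoacyl-tRNA synthetases that passed the filter, of 18 on the array, 12 were above 0 with Mkl1 siRNA (median 0.11) and 8 with Y-27632 (median 0.013). Nars2, the asparaginyl enzyme, had 7.86 with Mkl1 siRNA and 6.81 with control siRNA, and 7.72 with Y-27632 and 7.58 with DMSO, so its difference of 1.05 came with a low control siRNA array. Wars2, the tryptophanyl enzyme, was the lowest at -0.33. Of 14 genes for upkeep and transcription of mitochondrial DNA, 13 were above 0 with Y-27632 (median 0.13) and 13 with Mkl1 siRNA (median 0.21), against 2 between the controls (median -0.13). Tfam, which packages that DNA, differed by 0.12 and 0.25, and the RNA polymerase Polrmt by 0.17 and 0.37. With Mkl1 siRNA Mterf1a was the highest of this list at 0.52 and Mterf2 the lowest at -0.12. Against DMSO in place of control siRNA, Mkl1 siRNA gave 9 of 14 above 0 in this list (median 0.064).

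**Figure D4:**
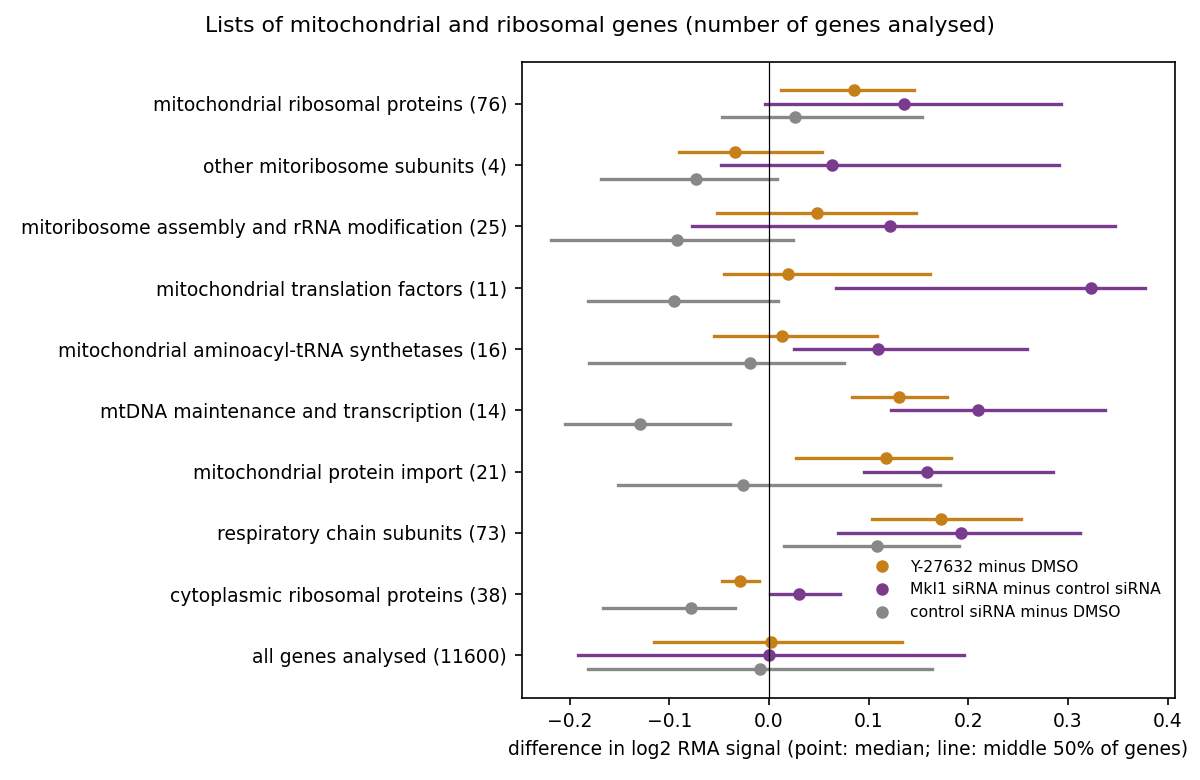
Median (point) and middle 50% (line) of the difference in log2 RMA signal for each list of genes, with the number of genes analysed in brackets, for Y-27632 minus DMSO (orange), Mkl1 siRNA minus control siRNA (purple) and control siRNA minus DMSO (grey). The medians of the mitochondrial ribosomal proteins lie at 0.086, 0.14 and 0.026, between those of the cytoplasmic ribosomal proteins (-0.029, 0.031 and -0.078) and of the respiratory chain subunits (0.17, 0.19 and 0.11).

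Nuclear-encoded respiratory chain subunits, the partners of the proteins that the mitochondrial ribosome makes, had larger medians than the ribosomal proteins in both treatments: 64 of 73 were above 0 with Y-27632 (median 0.17) and 61 of 73 with Mkl1 siRNA (median 0.19), and 56 of 73 between the controls (median 0.11). Cytoplasmic ribosomal proteins had 9 of 38 above 0 with Y-27632 (median -0.029) and 29 of 38 above 0 with Mkl1 siRNA (median 0.031). Only genes with a probe set of 1 symbol could enter this list, 39 on the array. Their mean log2 signal was 13.0 with DMSO and 12.9 with control siRNA, and the highest value on any array was 14.6. Whether differences are compressed at that level was not tested. Between the controls 4 of these 38 were above 0 (median -0.078). Against DMSO in place of control siRNA, Mkl1 siRNA gave 8 of 38 above 0 (median -0.057), so its direction depended on the control. Mitochondrial protein import genes had 17 of 21 above 0 in both treatments, with medians of 0.12 and 0.16. Timm9, an import chaperone of the intermembrane space, differed by 0.32 and 1.02, and its control siRNA array stood at -0.67 from DMSO. Tomm40l was the lowest import gene with Mkl1 siRNA at -0.25. No difference between lists was tested.

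Among 10 regulators of nuclear genes for mitochondrial proteins, Ppargc1b, a coactivator that raises mitochondrial content, stood apart. It had 7.79 with Y-27632 and 5.94 with DMSO, and 8.89 with Mkl1 siRNA and 5.73 with control siRNA, differences of 1.85 and 3.17. Its relative Ppargc1a did not pass the filter. The nuclear receptor Esrra differed by -0.020 with Y-27632 and 0.36 with Mkl1 siRNA, Nrf1 by -0.24 and 0.044, Gabpa by 0.079 and -0.16, and Myc by -0.089 and -0.083. Ppargc1b was thus the only regulator of the 10 at least 0.322 from its control in both treatments.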

How the data were processed

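The deposited values were log2 signals of 45101 probe sets on each of 4 Affymetrix arrays. Per the submitters' processing notes, the authors used RMA. What RMA release and probe grouping served, and how many arrays were summarised jointly, is not given in the sources used here. RNA was extracted with Trizol and labelled as biotin cRNA, per the labels' protocols.

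From these log2 values, symbols were attached to probe sets from the annotation of the platform: 34945 carried 1 gene symbol, 932 several and 9211 none, and the rest were array controls with a symbol, left out. Symbols were updated through the gene number in RefSeq. The probe set of highest mean signal stood for its gene, and 11600 of 18193 genes had an array at or above the median of all values (5.69). Differences are log2 signal of 1 array minus another. Counts at 1.5-fold and at 0.322, and medians, stand beside those of all genes analysed. No test was made, since each group had 1 array. A signal is not compared between probe sets. Precision is limited by there being only 4 arrays.

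Genes were named by rule: the 5 highest and 5 lowest differences per subunit in each treatment, those furthest on the same side in both, any at least 1.5-fold in a comparison, Mrps30, Mrps18a, Mrpl12, regulators, and the highest and lowest of related lists. Further names (Mrpl11, Mrps5, Mrps9, Mrps35, Polrmt, and members of short lists or ranked next to the highest) were chosen after their values were seen. The members and lists were chosen with earlier results of these data known. The calculations were tested on simulated data. Python 3.11.15, pandas 2.3.3, numpy 2.4.6, statsmodels 0.14.6 and matplotlib 3.10.9 were used.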

Additional observations from a re-analysis of the deposited data

How the results depend on the processing

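Among main results under an alternative, 149 lay within a tolerance of 0.05 log2 for medians or 1.5 times for counts. Of the others, 11 moved past it and 4 reversed. Of the 149, 21 came from leaving out the filter and could not change, since all 76 genes passed it. Another 21 came from subtracting the median of all genes. This was 0.0023, 0.0005 and -0.0089 in the 3 comparisons, too small to move a member median past 0.05. Of the values of single genes, 84 stayed within 0.05 and 81 moved. That tolerance is as large as several of the medians, so a result within it may still change by more than 1.5 times. Against the other control array the member median with Y-27632 was 0.0377 in place of 0.0855, with 47 in place of 62 of 76 genes above 0, and the large subunit median was 0.027 in place of 0.050. The member median ranged between 0.038 and 0.092 for Y-27632 minus DMSO, 0.11 and 0.18 for Mkl1 siRNA minus control siRNA, and 0.011 and 0.044 for control siRNA minus DMSO, always above 0. Large minus small with Mkl1 siRNA reversed to 0.0093 with the mean of all probe sets and to 0.0118 against the other control array. It was -0.0753 without probe sets of type _s_at, _x_at and _a_at, and -0.0082 after loess; for Y-27632 it lay between -0.0683 and -0.0271. The small subunit median for control siRNA minus DMSO reversed to -0.0048 without those probe sets, and to -0.0033 after a loess curve on mean level was subtracted. Without those probe sets, 1 gene was at least 1.5-fold higher with Mkl1 siRNA, and 2 were higher and 1 lower between the controls; with the mean of all probe sets none was higher between the controls. Against the other control array the large subunit median with Mkl1 siRNA was 0.1852, and 1 gene was at least 1.5-fold higher. At a log2 limit of 0.322, 15 were higher and 3 lower with Mkl1 siRNA, and 4 higher and 3 lower between the controls; at 2-fold 0 were higher between the controls. The cause of these moves was not tested. No paired analysis was possible because each group had 1 array, and no replicate could be left out for the same reason.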

Other observations

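Of the probe sets for mitochondrial ribosomal proteins, 4 carry the symbol of a further gene and were kept out of the 76 genes. For Mrpl30, listed with Gm6238, 1 probe set lay -0.034 from DMSO with Y-27632 and 0.13 from control siRNA with Mkl1 siRNA; the other lay -0.35 and 0.21 away. The probe set shared by Mrps34 and Nme3 differed by 0.17 and -0.12, and that shared by Mrpl53 and Ccdc142 by 0.070 and 0.037. Among respiratory chain subunits, Cox7a1 stood far from the rest with Mkl1 siRNA, at -1.20, while Ndufv1, the highest of the 73, stood at 0.54. Cox7a1 had a low signal, of 5.14 with Mkl1 siRNA, below the filter of 5.69, and 6.33 with control siRNA. It had 6.71 with Y-27632 and 6.10 with DMSO, a difference of 0.60 in the other direction.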
